A study of Mus musculus with 9 samples.

Results

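The comparison set the nigra of mice that received MPTP, with or without a ketogenic diet, against that of controls. It used all 9 libraries of the series: the 3 of the MPTP group and the 3 of the group given MPTP and the diet (MPTPKD), each group mean with a weight of 0.5, against the 3 control libraries (Ctrl). Genes were chosen by annotation and level, as rows with an Ensembl identifier and a mean FPKM (fragments per kilobase of transcript, scaled to the mapped fragments of a library) of at least 0.5. These were 13810 of the 27339 rows. The contrast asks what the toxin groups had in common, whatever the diet. A second contrast, MPTPKD against MPTP, asks where they differed.

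RNA was taken from the substantia nigra pars compacta. The Ctrl group is labelled only as control, the second group as MPTP, and the third as MPTP_MCTKD, that is MPTP with a ketogenic diet of medium-chain triglycerides. The sources used here do not give strain, sex, age, toxin dose, diet length or the time between injection and tissue collection. The series holds no library labelled as given the diet alone, so the diet without the toxin cannot be assessed here. Whether a library was 1 animal is not labelled, and p-values therefore reflect only how far libraries of a group spread.

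MPTP is a toxin that brain glia turn into MPP+, which the dopamine transporter carries into dopamine neurons, where it blocks complex I of the respiratory chain. Those neurons carry the enzymes of dopamine synthesis, the transporter and nicotinic receptors that hold the alpha6 and beta3 subunits. Protein-folding stress is met by heat shock factor 1, which drives chaperones of the cytosol such as Hsp70 and its Hsp40 partners, and by the unfolded protein response, which drives chaperones of the endoplasmic reticulum such as BiP (Hspa5). Vegfa, a growth factor for blood vessels, is a target of the hypoxia-inducible factors. Where whole tissue is measured, fewer cells of a type and less RNA per cell cannot be told apart.

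Libraries held 33.2 to 40 M counts (M for mega), of which mitochondrial genes took 6.14% to 7.06%. The defining dopamine genes were present in each library, but neighbouring tissue differed among libraries. Choroid plexus RNA marked Ctrl 3, where Ttr, which encodes the thyroxine carrier transthyretin, was at 1076 CPM (counts per mega counts), with 2.19 to 70.2 CPM in the remaining 8. Tph1, an enzyme of the pineal gland, stood at 49.3 CPM in Ctrl 3 and at 0 to 2.57 CPM elsewhere. Tph2, a gene of raphe neurons, ranged from 26.9 to 103 CPM except in MPTP 1 (10.8 CPM) and MPTPKD 1 (14.2 CPM). Ptgds, abundant in meninges, ranged from 322 to 1097 CPM with no split by group.

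Chaperone genes and Vegfa had the lowest p-values of the contrast, all on the lower side, with dopamine neuron genes, immediate early genes and endoplasmic reticulum chaperones below Ctrl beside them. Myelin genes and microglial receptors lay on the higher side. No gene passed the threshold. Of 13810 genes, edgeR's quasi-likelihood test with Benjamini-Hochberg adjustment called 0 lower and 0 higher at an adjusted p of 0.05 (0%), the smallest adjusted p being 0.0645. An unadjusted p under 0.05 was reached by 365 genes on the lower side (2.64%) and 380 on the higher side (2.75%), 745 in all (5.39%). DESeq2 called 9 lower (Vegfa, Dnajb1, Hspa1b, Slc5a3, Mrps34, Hspa5, Chrna6, Fos and Sag) and 3 higher (Fzd6, Rnf26 and Sumo2), and limma on log2 FPKM called 0 in either direction.

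All 6 toxin libraries lay below all 3 Ctrl libraries for 170 genes (1.23%) and above them for 153 (1.11%). Of the 30 genes named by smallest p, 25 were clear of Ctrl in this way on CPM and 21 of these also on the deposited FPKM, the other 4 being Mrps34, Rnf141, Prox1 and Pdlim2. Choosing genes by p in this contrast on the same libraries favours such separation, so the 25 of 30 is a description and no separate support. The typical difference was small, with a median absolute log2 fold change of 0.064 and a median SE of 0.082.

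**Figure D1:**
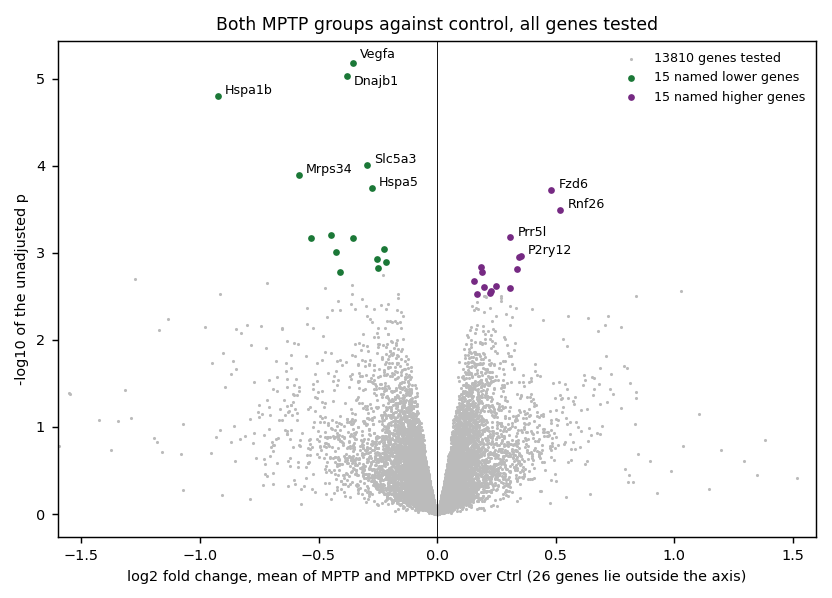
Each point is 1 of the 13810 genes tested. The x axis is the log2 fold change of the mean of MPTP and MPTPKD over Ctrl, the y axis is -log10 of the unadjusted p, and 26 genes lie outside the x axis. The genes of smallest p, Vegfa, Dnajb1 and Hspa1b, are on the lower side, and Fzd6 leads the higher side.

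Vegfa and the cytosolic chaperones Dnajb1 and Hspa1b stood highest by p, and for all of them each of the 6 toxin libraries lay below each Ctrl library. Vegfa (ENSMUSG00000023951, chr17:46016993-46032369, minus strand) stood at 85.4, 91.7 and 89.9 CPM in Ctrl, at 69.1, 71.3 and 78.4 CPM in MPTP and at 67.4, 65.8 and 66.2 CPM in MPTPKD. The highest toxin library, MPTP 3, was still below the lowest Ctrl library. The log2 fold change was -0.35 (SE 0.049, adjusted p = 0.0645 by edgeR), a level 21.8% below Ctrl. Against Ctrl it was -0.29 in MPTP and -0.42 in MPTPKD.

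Dnajb1 (ENSMUSG00000005483, chr8:83608193-83612653, plus strand) encodes the Hsp40 that hands unfolded proteins to Hsp70. It stood at 85.4, 92.2 and 90.8 CPM in Ctrl, at 59.2, 62.4 and 61.5 CPM in MPTP and at 84.4, 75.9 and 71.4 CPM in MPTPKD. The diet group lay between Ctrl and MPTP, and its first library came within about 1 CPM of the lowest Ctrl library. The pooled log2 fold change was -0.38 (SE 0.055, adjusted p = 0.0645 by edgeR), made up of -0.55 in MPTP and -0.21 in MPTPKD. In the contrast of MPTPKD with MPTP its log2 fold change was 0.34 (unadjusted p = 0.000153, adjusted p = 0.491 by edgeR).

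Hspa1b (ENSMUSG00000090877, chr17:34956436-34959238, minus strand) is an inducible Hsp70. It stood at 19.0, 16.4 and 22.7 CPM in Ctrl, at 7.43, 8.04 and 9.34 CPM in MPTP and at 14.4, 9.61 and 13.6 CPM in MPTPKD. The groups were ordered Ctrl, MPTPKD, MPTP without overlap between any of them. The pooled log2 fold change was -0.93 (SE 0.14, adjusted p = 0.0717 by edgeR), 47.4% below Ctrl, and MPTPKD exceeded MPTP by 0.60 (unadjusted p = 0.00332, adjusted p = 0.562). Reads of its near-identical copy Hspa1a may have been exchanged with it. Hspa1a averaged 19.9 CPM in Ctrl, 13.2 CPM in MPTP and 14 CPM in MPTPKD (log2 fold change -0.55, adjusted p = 0.893 by edgeR). With MPTP alone against Ctrl, in the same fit, Dnajb1 (adjusted p = 0.0136) and Hspa1b (adjusted p = 0.0418) were the 2 genes called (0.0145% of those tested), and 0 genes were called for MPTPKD against Ctrl, where 944 (6.84%) had an unadjusted p under 0.05.

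**Figure D2:**
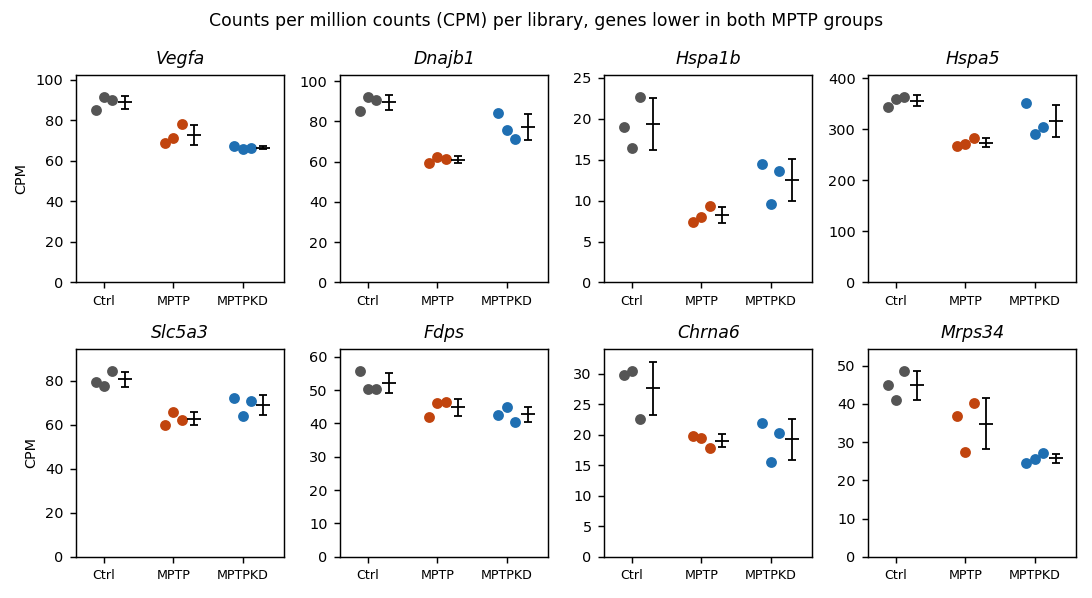
Points are the CPM of single libraries in the Ctrl, MPTP and MPTPKD groups for 8 genes on the lower side, and the crosses are group means with the SD (n = 3). For Dnajb1, Hspa1b and Hspa5 the diet libraries lie between the Ctrl and MPTP libraries or reach into the Ctrl range, and for Vegfa and Mrps34 they are the lowest.

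The promoters of these chaperones are shown because heat shock factor binds inverted repeats of GAA. RefSeq windows of 250 bases before the gene start were read on GRCm38.p6 and searched on both strands for GAANNTTC and TTCNNGAA. Each is written 5′ to 3′ on the strand of its gene, and a match is drawn in capitals.

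Hspa1b chr17:34959239-34959488, minus strand: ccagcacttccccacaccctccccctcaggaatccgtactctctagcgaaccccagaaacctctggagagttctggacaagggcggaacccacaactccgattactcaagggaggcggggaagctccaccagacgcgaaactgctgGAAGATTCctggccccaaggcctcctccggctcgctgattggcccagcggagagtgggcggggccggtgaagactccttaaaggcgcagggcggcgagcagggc
Hspb1 chr5:135887669-135887918, plus strand: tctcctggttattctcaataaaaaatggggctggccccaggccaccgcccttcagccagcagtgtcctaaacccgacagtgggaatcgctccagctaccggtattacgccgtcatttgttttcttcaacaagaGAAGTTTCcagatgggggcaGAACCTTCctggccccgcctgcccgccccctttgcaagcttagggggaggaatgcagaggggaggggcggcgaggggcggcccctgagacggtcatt
Dnajb1 chr8:83607925-83608174, plus strand: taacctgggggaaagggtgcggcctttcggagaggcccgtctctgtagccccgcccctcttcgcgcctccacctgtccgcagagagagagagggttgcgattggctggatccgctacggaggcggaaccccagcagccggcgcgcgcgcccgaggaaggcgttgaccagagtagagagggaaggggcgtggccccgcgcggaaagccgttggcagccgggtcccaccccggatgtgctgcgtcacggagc

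Hspa1b held 1 match and Hspb1 held 2, and the Dnajb1 window held 0. Either repeat was found in 10 of the 19 heat shock list genes with a window in the table (52.6%) and in 3 of 11 named lower genes (27.3%) and 3 of 12 named higher genes (25%), against 11.8% of the 10760 tested genes with a window and 14.5% of all 27025 in the table. Longer forms, with 3 repeats in a row, were in 2 of 19 (10.5%), against 0.437% of tested genes, and in 0 of the 11 and 0 of the 12. Hspa5, described below, carries the endoplasmic reticulum stress element, CCAAT and CCACG with 9 bases between, from 65 to 47 bases before its RefSeq start (chr2:34772025-34772043, plus strand). Its annotated span starts earlier, at 34771970, so the site lies inside that span.

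Hspa5 element: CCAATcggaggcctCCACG

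That element was in 9 of 22 genes of the endoplasmic reticulum list (40.9%) and in 0.158% of tested genes. The core letters ACGTG of the hypoxia response element were in 13 of 18 hypoxia genes (72.2%) and in 24.7% of tested genes. They were also in 9 of 22 endoplasmic reticulum genes (40.9%), 6 of 19 immediate early genes (31.6%) and 5 of 19 heat shock genes (26.3%). Among named genes with a window they were in 7 of 11 lower (63.6%) and 2 of 12 higher ones (16.7%). The 7 were Vegfa, P4ha1, Dnajb1, Hspa5, Serpinh1, Ppp1r3c and Utp14b, and the named genes were chosen by p in these data. TGACGTCA, the cyclic AMP response element, was in 2 of 19 immediate early genes (10.5%), in 0 of 11 named lower and 0 of 12 named higher genes and in 3.03% of tested genes. Of the 7 patterns searched, the 2 short repeats were added after the longer forms had been counted. Matches are letters in a window and say nothing of binding.

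Of the 24 heat shock genes tested, 22 lay below Ctrl and 2 above (51.3% of all genes tested lay below), with 0 called (0%) and 7 lower and 0 higher at an unadjusted p under 0.05. The median log2 fold change was -0.081, beside -0.0027 over all genes tested, and -0.049 without Ctrl 2. Besides Dnajb1, Hspa1b and Hspa1a these 7 were Hspb1, Dnajb4, Serpinh1 and Fkbp4. Hspb1, the small chaperone Hsp27, stood at 17.9, 15.6 and 17.7 CPM in Ctrl, at 11.6, 9.42 and 11.4 CPM in MPTP and at 15.9, 13.1 and 14.5 CPM in MPTPKD. MPTP lay clear of Ctrl, and MPTPKD 1 overlapped it (log2 fold change -0.45, SE 0.10, adjusted p = 0.784). Hspa8, the constitutive Hsp70, and Hsp90aa1, an Hsp90, had log2 fold changes of -0.077 and -0.054, and were chosen after their values were seen.

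Dnajb4, another Hsp40, and Serpinh1, the collagen chaperone Hsp47 of the endoplasmic reticulum, had every toxin library below every Ctrl library. Dnajb4 was at 86.3 to 95.2 CPM in Ctrl, 69.1 to 78.0 CPM in MPTP and 78.8 to 84.6 CPM in MPTPKD (log2 fold change -0.22, adjusted p = 0.893). Serpinh1 was at 28.9, 29.3 and 31.9 CPM in Ctrl, at 15.7, 22.1 and 22.6 CPM in MPTP and at 25.1, 23.5 and 25.7 CPM in MPTPKD (log2 fold change -0.43, adjusted p = 0.893). MPTP 1 was its lowest library by far. Meningeal fibroblast genes, averaged on the log2 scale, were also lowest there, and the part of that tissue in the Serpinh1 value was not tested.

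Chaperones of the endoplasmic reticulum followed the same order of groups. Hspa5 (ENSMUSG00000026864, chr2:34771970-34777547, plus strand), the Hsp70 of that compartment, stood at 344, 360 and 363 CPM in Ctrl, at 268, 271 and 283 CPM in MPTP and at 351, 290 and 305 CPM in MPTPKD. Only MPTPKD 1 reached the Ctrl range. The log2 fold change was -0.28 (SE 0.054, adjusted p = 0.369), with -0.38 in MPTP and -0.17 in MPTPKD. Of 26 genes of the endoplasmic reticulum stress list 23 lay below Ctrl and 3 above, 7 of them lower at an unadjusted p under 0.05 and 0 called, with a median of -0.059. Without Ctrl 3 and MPTP 1 the 7 became 6, and in the heat shock list 9.

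Those 7 were Hspa5, the transcription factor Xbp1, the disulphide isomerase Pdia4, Dnajc3, Dnajb11, Herpud1 and the secreted factor Manf. Xbp1 was at 97.3 to 113 CPM in Ctrl, 82.1 to 86.2 CPM in MPTP and 88.2 to 105 CPM in MPTPKD (log2 fold change -0.20). Pdia4 was at 39.8 to 46.5 CPM in Ctrl, 32.3 to 37.4 CPM in MPTP and 36.5 to 40.2 CPM in MPTPKD (-0.22). Dnajc3, a partner of Hspa5, was at 100 to 105 CPM in Ctrl, 83.4 to 89.6 CPM in MPTP and 92.4 to 103 CPM in MPTPKD (-0.15). For these genes MPTP lay wholly below Ctrl and MPTPKD overlapped it.

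The lower named genes that carry no chaperone label covered transport, collagen, glycogen and sterol metabolism. Slc5a3, the sodium-coupled transporter of the osmolyte myo-inositol, stood at 79.6, 77.7 and 84.3 CPM in Ctrl, at 59.8, 65.7 and 62.2 CPM in MPTP and at 72.2, 63.8 and 70.6 CPM in MPTPKD. The toxin libraries all lay below Ctrl (log2 fold change -0.29, SE 0.054, adjusted p = 0.338). Its annotated span overlaps Mrps6 on the same strand. Of the 10 osmolyte and tonicity genes tested 7 lay below Ctrl and 3 above, Slc5a3 alone at an unadjusted p under 0.05, with a median of -0.051. With the meningeal fibroblast score as a covariate the osmolyte and tonicity median turned to 0.011, with 3 below and 7 above, and in fits without 1 library it ran from -0.078 (without MPTPKD 2) to -0.0042 (without MPTP 1). The glycine and creatine transporters Slc6a9 and Slc6a8 each had a log2 fold change of 0.07.

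In the hypoxia list 15 of 19 genes lay below Ctrl and 4 above, with 4 lower at an unadjusted p under 0.05 (Vegfa, P4ha1, P4ha2 and Ldha), 0 called and a median of -0.047. Leaving out 1 library moved the hypoxia median between -0.090 (without MPTPKD 2) and -0.019 (without Ctrl 1). P4ha1, a subunit of the enzyme that hydroxylates prolines of collagen, was at 51.3, 51.9 and 55.7 CPM in Ctrl, at 42.8, 42.9 and 44.0 CPM in MPTP and at 49.4, 46.6 and 48.8 CPM in MPTPKD. All 6 toxin libraries were below Ctrl (log2 fold change -0.21, adjusted p = 0.893). Ldha, lactate dehydrogenase A, was at 151 to 162 CPM in Ctrl, 138 to 155 CPM in MPTP and 133 to 139 CPM in MPTPKD (-0.17). P4ha2 was at 14.2 to 18.3 CPM in Ctrl, 13.4 to 15.5 CPM in MPTP and 11.1 to 13.5 CPM in MPTPKD (-0.31).

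Fdps, which makes farnesyl diphosphate for sterols and prenyl groups, stood at 55.7, 50.3 and 50.5 CPM in Ctrl, at 41.9, 46.2 and 46.5 CPM in MPTP and at 42.6, 45.0 and 40.5 CPM in MPTPKD. No toxin library reached Ctrl (log2 fold change -0.25, adjusted p = 0.893). The annotated span of Fdps overlaps Gm43738 on the same strand. Of 23 genes of cholesterol synthesis and uptake 19 lay below Ctrl and 4 above, 5 of them lower at an unadjusted p under 0.05, with a median of -0.058 (-0.094 without MPTPKD 2 and -0.090 without Ctrl 2). Without Ctrl 3 and MPTP 1 there were 20 below Ctrl and 2 at that p. In this list the diet group was the lower of the toxin groups for 17 of 23 genes. The sterol enzyme gene Msmo1 had a pooled log2 fold change of -0.15.

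Ppp1r3c, the subunit that brings protein phosphatase 1 to glycogen, was at 56.0 to 61.5 CPM in Ctrl, 46.6 to 48.1 CPM in MPTP and 45.4 to 54.5 CPM in MPTPKD, all toxin libraries below Ctrl (log2 fold change -0.25, adjusted p = 0.893). Mrps34, a protein of the small mitochondrial ribosome, stood at 44.9, 41.1 and 48.6 CPM in Ctrl, at 36.8, 27.4 and 40.3 CPM in MPTP and at 24.5, 25.5 and 27.1 CPM in MPTPKD (log2 fold change -0.58, adjusted p = 0.349). Its count and FPKM imply a transcript length that differed by up to 1.43 times between libraries, and it overlaps Mapk8ip3 on the opposite strand and Nme3 on its own strand. Utp14b, which lies within the span of Acsl3, was at 23.7 to 24.8 CPM in Ctrl, 19.6 to 21.4 CPM in MPTP and 16 to 19.6 CPM in MPTPKD (-0.36). For Mrps34 and Utp14b no toxin library reached the Ctrl range on CPM. On FPKM Utp14b stayed clear, but Mrps34 did not, with 33.3 in MPTP 1 and 30.5 in MPTP 3 against 30.1 to 34.8 in Ctrl. Shared reads of Mrps34 and Mapk8ip3 cannot be separated without a stated strand. Nme3 and Acsl3 lie on the same strand as Mrps34 and Utp14b, so a stated strand would not separate those.

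Pcdhgb7, a gamma-protocadherin whose exons are shared with its gene cluster, was at 22.5 to 26.1 CPM in Ctrl, 16.5 to 23.6 CPM in MPTP and 15.8 to 17.6 CPM in MPTPKD (-0.41, adjusted p = 0.893). MPTP 2 alone lay within the Ctrl range. Its reads cannot be assigned with certainty to 1 member of the cluster.

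Dopamine neuron genes lay below Ctrl in both toxin groups. Of 28 tested 27 lay below Ctrl and 1 above, 10 were lower and 0 higher at an unadjusted p under 0.05, and 0 were called. The median log2 fold change was -0.28, with -0.30 in MPTP and -0.29 in MPTPKD, against -0.0027 over all genes tested. The mean log2 level of the list, with Ctrl set to 0, was 0.096, -0.095 and -0.0013 in Ctrl, -0.54, -0.097 and -0.30 in MPTP, and -0.17, -0.26 and -0.39 in MPTPKD. Every toxin library was below Ctrl, MPTP 2 by a narrow margin.

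Chrna6, the alpha6 subunit of the nicotinic receptor of these neurons (ENSMUSG00000031491, chr8:27403212-27413944, minus strand), stood at 29.9, 30.5 and 22.6 CPM in Ctrl, at 19.8, 19.5 and 17.8 CPM in MPTP and at 22.0, 15.5 and 20.4 CPM in MPTPKD. All 6 toxin libraries lay below Ctrl, though MPTPKD 1 came close to Ctrl 3. The difference in Chrna6 was -0.53 on the log2 scale (SE 0.12, adjusted p = 0.784). Chrnb3, for the beta3 subunit, was at 14.7 to 21.2 CPM in Ctrl, 11.4 to 15.2 CPM in MPTP and 10.7 to 16 CPM in MPTPKD (-0.55). The vesicle protein gene Slc10a4 (-0.41) had no toxin library in the Ctrl range, and the transcription factor Nr4a2 (-0.36) had 1.

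The gene of tyrosine hydroxylase, Th, stood at 110, 84.7 and 69.7 CPM in Ctrl, at 56.0, 64.6 and 68.9 CPM in MPTP and at 79.1, 60.0 and 48.7 CPM in MPTPKD. Its Ctrl libraries spread widely, and MPTPKD 1 lay among them (log2 fold change -0.49, SE 0.19, adjusted p = 0.896). For Slc6a3, the transporter that takes dopamine back up, the libraries were at 184, 160 and 131 CPM in Ctrl, at 128, 117 and 94.3 CPM in MPTP and at 145, 98.8 and 87.4 CPM in MPTPKD (-0.50, adjusted p = 0.896), again with MPTPKD 1 within the Ctrl range. Ddc, the decarboxylase that makes dopamine, had a log2 fold change of -0.37 and the vesicular transporter Slc18a2 one of -0.25. Neither separated the groups, with 4 of 6 toxin libraries below all Ctrl libraries for each.

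Markers of a neighbouring region lay mostly above Ctrl. Of 10 genes of thalamic neurons 8 lay above Ctrl and 2 below, with 0 past an unadjusted p of 0.05 and a median of 0.32 (0.48 without Ctrl 1). The list score was 0.27, -0.21 and -0.057 in Ctrl, 0.60, 0.24 and 0.017 in MPTP, and 0.51, 0.13 and 0.016 in MPTPKD, so that the groups overlapped. Ramp3, a receptor partner used as a thalamic marker, was at 31.1 to 45.1 CPM in Ctrl, 40.9 to 72.8 CPM in MPTP and 34.9 to 65.6 CPM in MPTPKD. Rora, Plekhg1 and Synpo2 overlapped likewise. The part of the region sampled in the dopamine gene values was not tested. Without Ctrl 3 and MPTP 1 24 of 28 dopamine genes were below Ctrl, 10 lower and 1 higher at an unadjusted p under 0.05, with a median of -0.20.

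Immediate early genes, which neurons switch on within minutes of activity or of handling, lay below Ctrl mainly in MPTP. Of 24 tested 18 were below and 6 above, 7 lower and 0 higher at an unadjusted p under 0.05, 0 called, with a median of -0.13 that was -0.29 in MPTP and -0.033 in MPTPKD. Nr4a2 is in this list and in that of dopamine neurons, and is counted among the lower genes at that p in both. Without MPTPKD 1 the immediate early median was -0.071, and without MPTP 3 it was -0.20. Fos stood at 16.6, 24.4 and 17.2 CPM in Ctrl, at 8.03, 9.02 and 10.1 CPM in MPTP and at 10.9, 18.6 and 16.9 CPM in MPTPKD. MPTP lay clear of Ctrl, and MPTPKD ran from just above MPTP into the Ctrl range (pooled log2 fold change -0.72, SE 0.18, adjusted p = 0.893). Klf2 was the 1 member with all 6 toxin libraries below Ctrl, at 14.5 to 15.7 CPM in Ctrl, 8.99 to 12.7 CPM in MPTP and 11.9 to 14 CPM in MPTPKD (-0.32). With the meningeal fibroblast score as a covariate the median of the list was -0.011, and 14 of 24 genes were below Ctrl.

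Lists of blood, meninges and choroid plexus had medians below 0 in the pooled contrast, with 0 genes called and large differences between libraries of 1 group. Of 7 red cell genes 6 lay below Ctrl, with a median of -0.49. The haemoglobin gene Hba-a2 was at 28.6, 33.8 and 49.2 CPM in Ctrl, at 15.6, 27.6 and 24.0 CPM in MPTP and at 26.2, 24.6 and 25.7 CPM in MPTPKD, with no overlap (-0.64, adjusted p = 0.893). Its copies in the genome share reads. The precursor enzyme of haem Alas2 and the haemoglobins Hbb-bt and Hbb-bs had log2 fold changes of -0.63, -0.59 and -0.49. The red cells median was -0.23 without Ctrl 3 and -0.12 without Ctrl 3 and MPTP 1.

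Of 14 meningeal fibroblast genes 13 lay below Ctrl, 1 of them (Igfbp2, -0.33) at an unadjusted p under 0.05, with a median of -0.42 that was -0.80 in MPTP and -0.018 in MPTPKD. Without Ctrl 1 the median of the meningeal fibroblasts was -0.10, and without MPTPKD 1 it was -0.24. The list score ran from -0.38 to 0.38 in Ctrl, from -1.35 to -0.083 in MPTP and from -1.13 to 0.53 in MPTPKD, the lowest values being those of MPTP 1, MPTP 2 and MPTPKD 1. The collagen-binding genes Lum and Bgn and the growth factor Igf2 spread as widely within MPTPKD, from 1.05 to 4.97, from 11.6 to 25.8 and from 44.4 to 127 CPM. All 10 choroid plexus genes lay below Ctrl with a median of -1.88, which rested on Ctrl 3. Without that library the choroid plexus median was -0.015, with 5 genes below and 5 above. Kcne2 was at 13.9 CPM in Ctrl 3 and at 0.058 to 0.88 CPM elsewhere, and Sostdc1 and Prlr were likewise highest in Ctrl 3.

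On the higher side Fzd6, a frizzled receptor for Wnt proteins (ENSMUSG00000022297, chr15:39006034-39038188, plus strand), had the smallest p. It stood at 11.4, 12.2 and 14.1 CPM in Ctrl, at 19.0, 16.8 and 17.9 CPM in MPTP and at 17.5, 16 and 18.2 CPM in MPTPKD. All 6 toxin libraries were above Ctrl, and the toxin groups overlapped (log2 fold change 0.48, SE 0.094, adjusted p = 0.369, 39.7% above Ctrl). Rnf26, a ubiquitin ligase of the endoplasmic reticulum, was at 25.7, 22.8 and 24.7 CPM in Ctrl, at 40.1, 29.7 and 29.3 CPM in MPTP and at 40.9, 33.7 and 36.2 CPM in MPTPKD (0.52, adjusted p = 0.550). No toxin library entered its Ctrl range either. Its annotated span overlaps Mfrp and C1qtnf5 on the opposite strand and Gm49380 on its own strand.

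P2ry12, the ADP receptor by which resting microglia sense injury, stood at 15.4, 16.3 and 16.5 CPM in Ctrl, at 19.7, 21.9 and 17.8 CPM in MPTP and at 20.1, 22.3 and 21.7 CPM in MPTPKD. All toxin libraries lay above Ctrl (log2 fold change 0.35, SE 0.085, adjusted p = 0.893), and the gene lies within the span of Med12l on the opposite strand. Of 18 genes of homeostatic microglia 14 lay above Ctrl and 4 below, 5 higher and 0 lower at an unadjusted p under 0.05, 0 called, with a median of 0.15. The list score was -0.079, 0.12 and -0.044 in Ctrl and 0.084 to 0.17 in the 6 toxin libraries, of which some lay below Ctrl 2. P2ry13 (0.33) and the growth factor receptor Csf1r (0.13) were among the 5. Without Ctrl 3 and MPTP 1 14 of 18 were again above Ctrl, but 1 rather than 5 had an unadjusted p under 0.05. Aif1, which encodes the microglial protein Iba1, was at 1.94 to 3.68 CPM in Ctrl, 2.08 to 3.13 CPM in MPTP and 1.93 to 2.6 CPM in MPTPKD (-0.15, adjusted p = 0.972), with full overlap.

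Myelin genes lay on 1 side of Ctrl. All 17 oligodendrocyte genes tested were above it, 11 of them at an unadjusted p under 0.05, with 0 called and a median of 0.20. Cnp, an enzyme of the inner myelin layer, stood at 426, 499 and 428 CPM in Ctrl, at 533, 551 and 473 CPM in MPTP and at 517, 554 and 535 CPM in MPTPKD. MPTP 3 lay below Ctrl 2, so the groups overlapped by 1 library (log2 fold change 0.23, SE 0.061, adjusted p = 0.893). Mobp was at 1767 to 2047 CPM in Ctrl, 1729 to 2185 CPM in MPTP and 2285 to 2441 CPM in MPTPKD (0.22), and the tight junction gene Cldn11 at 156 to 177, 155 to 202 and 197 to 219 CPM (0.24). Gjc3, a connexin, had 0.16.

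The list score of oligodendrocytes was -0.084, 0.15 and -0.062 in Ctrl, 0.24, 0.24 and -0.0031 in MPTP, and 0.16, 0.30 and 0.23 in MPTPKD. Ctrl 2 was the highest control and MPTP 3 the lowest toxin library, below Ctrl 2. Without Ctrl 3 and MPTP 1 all 17 genes stayed above Ctrl, but 1 rather than 11 had an unadjusted p under 0.05, as with a choroid plexus covariate, and the median was 0.15. Of 12 precursor genes 11 lay above Ctrl, 2 of them at an unadjusted p under 0.05, with a median of 0.11. The lineage factor Olig1 was at 228 to 252 CPM in Ctrl, 235 to 290 CPM in MPTP and 261 to 286 CPM in MPTPKD (0.20). Enpp6 (0.31), Olig2 (0.19) and Bcas1 (0.14) were the others of smallest p.

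**Figure D3:**
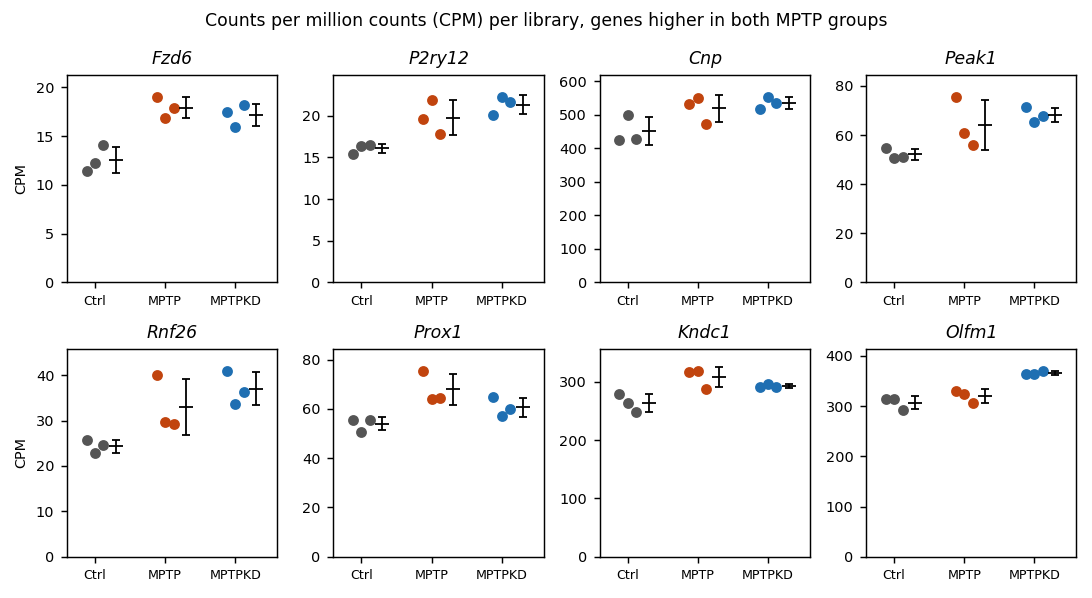
Points are the CPM of single libraries in the Ctrl, MPTP and MPTPKD groups for 8 genes on the higher side, and the crosses are group means with the SD (n = 3). Fzd6 and Rnf26 leave a gap between Ctrl and both toxin groups, Cnp overlaps by 1 library, and Olfm1 is set apart in MPTPKD only, where all 3 libraries lie at 363 to 369 CPM.

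Other higher genes fell in none of the lists. Peak1, a pseudokinase of the cytoskeleton, was at 50.6 to 54.5 CPM in Ctrl, 56.0 to 75.6 CPM in MPTP and 65.4 to 71.4 CPM in MPTPKD (log2 fold change 0.34). Prox1, a homeobox factor, was at 50.8 to 55.6, 64.0 to 75.3 and 57.1 to 64.8 CPM (0.25). Lingo1, a membrane protein that restrains myelination, was at 120 to 128, 132 to 163 and 136 to 149 CPM (0.23). None of these overlapped Ctrl on CPM, Prox1 did on FPKM, and each had an adjusted p of 0.893 by edgeR.

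Kndc1, an exchange factor of dendrites, was at 247 to 279, 287 to 318 and 291 to 296 CPM in Ctrl, MPTP and MPTPKD (0.19). The small GTPase gene Rhob was at 307 to 335, 339 to 384 and 355 to 374 CPM (0.17). St8sia5, which adds sialic acid to gangliosides, was at 20.1 to 25.5, 26.4 to 29.3 and 26.7 to 29.3 CPM (0.34). Again no toxin library entered the Ctrl range. Prr5l, a partner of the kinase complex mTORC2 (0.31), Secisbp2l (0.20) and the PDZ and LIM protein gene Pdlim2 (0.31) were also clear of Ctrl on CPM. For Prr5l and Pdlim2 the implied transcript length differed by 1.36 and 1.43 times between libraries. On FPKM Prr5l stayed clear, but Pdlim2 was at 10.5 to 14.2 in Ctrl and at 11.9 in MPTP 2, within that range.

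Olfm1, a secreted glycoprotein of neurons, and Rnf141 owed their place to the diet group. Olfm1 stood at 313, 315 and 292 CPM in Ctrl, at 331, 323 and 305 CPM in MPTP and at 363, 365 and 369 CPM in MPTPKD. MPTP overlapped Ctrl, and MPTPKD lay above both (log2 fold change 0.06 in MPTP and 0.25 in MPTPKD). Rnf141 was at 82.7 to 84.9 CPM in Ctrl, 85.6 to 95.7 CPM in MPTP and 101 to 104 CPM in MPTPKD (0.09 and 0.28). In the contrast of MPTPKD with MPTP their unadjusted p was 0.00125 and 0.00313 (adjusted p = 0.539 and 0.562 by edgeR).

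Astrocyte genes lay on both sides of Ctrl. Gfap, the filament protein that reactive astrocytes make, stood at 152, 208 and 154 CPM in Ctrl, at 172, 225 and 197 CPM in MPTP and at 222, 299 and 290 CPM in MPTPKD. Only MPTPKD was clear of Ctrl (pooled log2 fold change 0.43, SE 0.15, adjusted p = 0.893), and its 0.66 against Ctrl compares with 0.21 in MPTP. Of 15 reactive astrocyte genes 11 lay below Ctrl and 4 above, with a median of -0.073, which was 0.037 with the meningeal fibroblast score as a covariate, 0.024 without Ctrl 1 and 0.0063 without MPTP 1. Hspb1, which is also in the heat shock list, Serpina3n (-0.23) and H2-D1 (-0.14) were among those below.

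Genes of complex I, which the toxin blocks, and of ketone body use lay on both sides of Ctrl in the pooled contrast. Of 44 complex I genes 21 lay below Ctrl and 23 above, 0 lower and 2 higher at an unadjusted p under 0.05, with a median of 0.0023 that was -0.030 in MPTP and 0.038 in MPTPKD. With Ctrl 3 and MPTP 1 left out, 29 lay below and 15 above, 1 lower and 0 higher at that p, with a median of -0.024. Ndufa13 was at 56.9 to 57.9 CPM in Ctrl, 58.5 to 60.7 CPM in MPTP and 61.7 to 66.4 CPM in MPTPKD (0.11), Ndufc1 had 0.18, and the mitochondrially encoded mt-Nd1 had 0.14. Of 11 genes of ketone body use and transport 6 lay below and 5 above, 0 past an unadjusted p of 0.05, with a median of -0.0034. Leaving out 1 library or changing the fit turned the sign of the complex I median in 10 of 22 alternatives, and that of the ketone body median in 13. Oxct1, which activates acetoacetate, averaged 262 ± 14.4 CPM in Ctrl, 274 ± 26.3 CPM in MPTP and 287 ± 8.64 CPM in MPTPKD (SD, n = 3 each, log2 fold change 0.10, 95% interval -0.026 to 0.22). Bdh1, which oxidises 3-hydroxybutyrate, had -0.059 (95% interval -0.20 to 0.083).

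**Figure D4:**
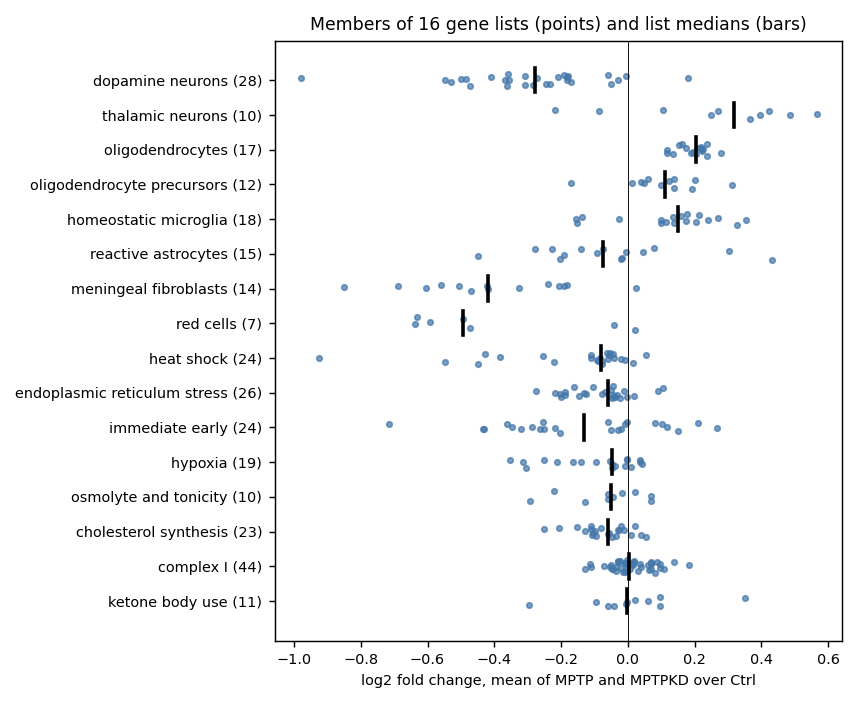
Points are the log2 fold changes of the tested members of 16 gene lists in the pooled contrast and bars are list medians, with the number tested in brackets. The choroid plexus list is left out because its values exceed the axis. All oligodendrocyte points lie above 0, all but 1 dopamine neuron point below 0, and complex I is centred on 0.

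The remaining 26 of the 43 lists held 473 tested members, counting a gene once for each list it is in, of which 21 were lower and 13 higher at an unadjusted p under 0.05. Apart from the pineal genes (-3.96, and -0.60 without Ctrl 3), their medians lay between -0.16 for ependyma and 0.16 for glutamate neurons.

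Whether a gene on either side differed between the toxin groups was read from the contrast of MPTPKD with MPTP, which uses no Ctrl library for its difference. There edgeR called 0 genes, DESeq2 called 13, and 1096 genes (7.94%) had an unadjusted p under 0.05. Among the 365 lower genes the share was 15.9%, and among the 380 higher genes 11.8%. Among the 15 named lower genes it was 11 of 15, 8 of them higher in MPTPKD (3.77% of all genes tested) and 3 lower (4.17%), and among the 15 named higher genes 2 of 15. With the replicate number as a block these were 10 of 15, 7 higher and 3 lower, and 3 of 15, Slc5a3 having an unadjusted p of 0.0561. These genes were chosen for a small p, which favours genes of small spread, and the contrasts share each gene's estimate of spread.

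The named lower genes lay on both sides in this contrast. Vegfa, Mrps34 and Utp14b were the 3 lower in MPTPKD than in MPTP. The 8 higher in MPTPKD, and so nearer to Ctrl, were Dnajb1, Hspa1b, Hspb1, Dnajb4, Serpinh1, Hspa5, Slc5a3 and P4ha1. Chrna6 stood level between the toxin groups (0.02, unadjusted p = 0.899). Of the 24 heat shock genes 18 were higher in MPTPKD than in MPTP, 6 of them and 0 of the lower ones at an unadjusted p under 0.05. For endoplasmic reticulum genes 20 of 26 were higher (6 and 0), for immediate early genes 20 of 24 (8 and 0), for complex I genes 38 of 44 (6 and 0), for oligodendrocyte genes 14 of 17 (3 and 0), and for dopamine neuron genes 12 of 28 (1 and 0). Over all genes tested 6948 of 13810 were higher. Of 23 cholesterol genes 6 were higher and 17 lower, 5 of the lower ones at an unadjusted p under 0.05. The meningeal fibroblast genes lay on that side too, with 14 of 14 higher in MPTPKD by a median of 0.82, and their part in these values was not tested.

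**Figure D5:**
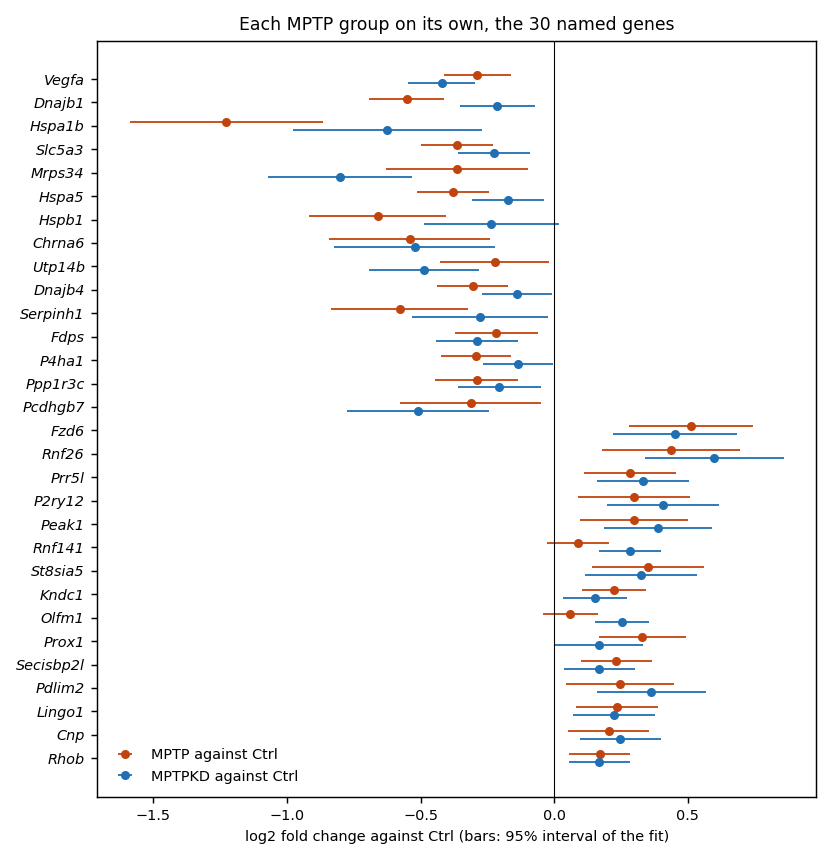
Points are the log2 fold changes of MPTP and of MPTPKD against the same Ctrl libraries for the 30 named genes, with the 95% interval of the edgeR fit as bars. Dnajb1, Hspa1b and Hspb1 lie farther from 0 in MPTP, Mrps34, Rnf141 and Olfm1 lie farther from 0 in MPTPKD, and Chrna6 and Rhob coincide.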

How the data were processed

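The authors deposited 1 table with a raw count and an FPKM value per gene and library, per the file headers. The build was GRCm38 (mm10), per the submitters' processing notes. The sources used here do not give the aligner, counting tool, annotation or strandedness. Libraries were mapped by title; 22022 of 22036 Ensembl identifiers matched GENCODE M21, which gave coordinates. The 5303 rows with the authors' own identifiers and 10 lines naming no gene were left out. Counts were fitted in edgeR 4.0.16 (R 4.3.3; quasi-likelihood, robust, TMM), 1 mean per group over 9 libraries, with Benjamini-Hochberg adjustment and a threshold of 0.05. CPM used TMM-scaled totals. DESeq2 1.42.0 and limma 3.58.1, with 0.5 or 1 added to FPKM, were alternatives. The edgeR fit was tested on simulated data.

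Members and lists were chosen with earlier results of these data known. In each direction the text names 15 genes by lowest p with a mean FPKM of at least 1, up to 4 members of 17 of 43 lists (these 17 chosen after seeing values), and 12 fixed genes. Hspa1a, Fkbp4, Dnajb11, Herpud1 and Manf are named outside this rule, after their values were seen. Same-numbered MPTP and MPTPKD libraries correlated in their deviations from group means at 0.213, 0.109 and 0.101, above the minimum of 0.1. Same-numbered pairs with Ctrl were at -0.151 to 0.0467. Pairs of unlike number ran from -0.165 to 0.0702 between MPTP and MPTPKD, and from -0.202 to 0.219 with Ctrl. The implied length, from count over FPKM, varied by a median of 1.03 times between libraries, and by over 1.1 times for 15.4% of 12115 genes with at least 100 counts throughout. Some members of the lists are not reported here by name.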

Additional observations from a re-analysis of the deposited data

Results flagged for a closer look

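The 6 toxin libraries of the 30 named and 12 fixed genes, 42 in all, were searched for a library far from the rest, using the gap to its neighbour over the whole range of log2 CPM and the 95% limit of 0.625 for 6 values. There were 2. Serpinh1 was far lowest in MPTP 1 (15.7 CPM, the next at 22.1 CPM), with a gap of 0.691 of the range. Pcdhgb7 was far highest in MPTP 2 (23.6 CPM, the next at 18.3 CPM), with a gap of 0.644. That limit is for 6 values of 1 group, and these came from MPTP and MPTPKD together. The 30 named genes were also chosen by smallest p, so the number that chance would give was not worked out.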

How the results depend on the processing

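All 30 named genes kept their direction under the 22 alternatives run, as did the medians of 21 of the 43 lists, among them dopamine neurons (-0.34 to -0.20), heat shock (-0.12 to -0.049) and oligodendrocytes (0.15 to 0.28). The 30 genes were chosen by p in the main fit on the same libraries, so a kept direction is no separate support. Calls were few and moved with the fit. Against 0 and 0, DESeq2 called 9 lower and 3 higher genes, no filter on low values 3 lower (Vegfa, Dnajb1 and Hspa1b), the meningeal fibroblast score as a covariate 1 lower (Dnajb1), and fits that leave out 1 library 0 to 4 lower: Fsd1l without MPTP 2, Vegfa without MPTP 3, and Dnajb1, Hspa1b, Hspa5 and Iqschfp without MPTPKD 1 (Fsd1l and Iqschfp, like Sag and Sumo2 above, are named outside the rule, after their values were seen). Adjusted p ranged over the alternatives from 1.08e-05 to 0.577 for Vegfa, from 1.32e-05 to 0.960 for Dnajb1 and from 1.08e-05 to 0.960 for Hspa1b.

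Whether replicate numbers pair libraries is not labelled, and the main fit used no replicate block. Same-numbered libraries of Ctrl and a toxin group correlated at -0.151 to 0.0467. With a replicate block 5 genes were called lower (Dnajb1, Slc6a3, Vegfa, Mrps34 and Hspa1b) and 2 higher (Gfap and Rnf26). In MPTPKD against MPTP the block changed no call, DESeq2 called 13, and leaving out 1 library gave 0 to 1, the 1 without MPTP 1 or MPTP 2. Removing Ctrl 3 and MPTP 1 together gave 1 there.

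The count of lower genes at an unadjusted p under 0.05 was 229 with a choroid plexus covariate and 212 without Ctrl 3 and MPTP 1, that of higher genes 215 and 213. Leaving out 1 library gave 204 to 470 lower and 221 to 611 higher, the lowest values without Ctrl 3 and the highest without MPTP 3.

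Directions reversed for Ttr (-4.47), with 1.16 under the choroid plexus covariate, 1.49 without Ctrl 3 and MPTP 1, and -5.53 to 1.49 in fits without 1 library, the 1.49 without Ctrl 3. They reversed for Aif1 (-0.32 to 0.18 in such fits, the 0.18 without Ctrl 2) and for Ptgds (0.077 with the meningeal score). Tph2 (0.03) was -0.23 and -0.20 in limma with 0.5 and 1 added, -0.27 with the replicate block, and -0.31 to 0.51 in fits without 1 library, below 0 without Ctrl 1, Ctrl 2, MPTP 2, MPTP 3, MPTPKD 2 or MPTPKD 3. The cause was not tested. Tph1 and Kcne2 were at 49.3 and 13.9 CPM in Ctrl 3 and at no more than 2.57 and 0.88 CPM elsewhere. The part of depth in such values was not tested.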
